A study of Mus musculus with 18 samples.

Results

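The miR-29 family of mouse C2C12 cells is described here by its 3 mature 3p arms, mmu-miR-29a-3p, mmu-miR-29b-3p and mmu-miR-29c-3p. They were taken by name from a table of 2042 miRNA names, and all 3 were present in it. C2C12 is a mouse myoblast line that forms myotubes in low serum. Small RNA was sequenced from 18 libraries, 3 in each of 6 groups: eluates of a bait carrying the 3'UTR of MRTF-A from differentiated and from undifferentiated cells, eluates of an MS2 control from both states, and input RNA of the lysates from both states. Differentiated cells had spent 7 days in horse serum medium, and the labels name no genetic change or drug for any group. The eluates come from miTRAP, in which a bait RNA with MS2 hairpins is fixed to a resin and traps miRNAs from a lysate. MRTF-A, the product of Mrtfa, activates transcription together with serum response factor, and the series asks which miRNAs bind its 3'UTR before and after myogenic differentiation. Separate cultures are not recorded for the libraries of a group, so every p-value measures the spread between libraries, which may be technical.

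miRNAs of the miR-29 family pair through their seed with sites in target 3'UTRs, and they are best known for repressing collagens and other proteins of the extracellular matrix. In muscle cells they belong to a circuit in which NF-kB acts through the repressor YY1 to silence miR-29 genes in myoblasts, while miR-29 in turn represses Yy1, which favours differentiation. The a, b and c forms share the seed and differ in the rest of the strand. A short motif at the 3' end of human miR-29b is known to direct that form to the nucleus.

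The mature sequences are shown because the seed is what the members share and the other bases are what tells their reads apart. They are RefSeq sequences on GRCm38.p6, matched by name for all 3 members, written 5' to 3' with the seed, bases 2 to 8, in capitals.
mmu-miR-29a-3p: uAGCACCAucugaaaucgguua
mmu-miR-29b-3p: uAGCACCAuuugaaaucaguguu
mmu-miR-29c-3p: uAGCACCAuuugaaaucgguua
No other name carried this seed among the 1603 names of the table with a sequence. Counted from 1 at the 5' end, miR-29a-3p and miR-29c-3p differ by C10U alone over 22 bases. From miR-29c-3p to miR-29b-3p the differences are G18A, U21G and A22U. How a read with a mismatch was assigned could not be read from the available sources, so reads of miR-29a-3p and of the scarcer miR-29c-3p may be partly exchanged.

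The 3 forms come from 4 hairpins in a pair of clusters. On chromosome 6 of GRCm38.p6, Mir29a lies at 31062660 to 31062747 and Mir29b-1 at 31063023 to 31063093, both on the minus strand and 275 bases apart. Mir29b-1 overlaps an exon of the lincRNA gene Gm27019. On chromosome 1, Mir29b-2 lies at 195037040 to 195037120 and Mir29c at 195037547 to 195037634, both on the plus strand and 426 bases apart. Both of these overlap exons of the noncoding gene A330023F24Rik, and also exons of Cd46 on the opposite strand. Mature miR-29b-3p has the same letters in both of its hairpins, so its reads cannot be split between the clusters, but the 5p arms differ between them.

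Depth differed by kind of library. Recovered reads, the whole reads behind the deposited values, numbered 107165 to 544504 in MRTF-A bait eluates, 15562 to 39695 in MS2 control eluates and 294112 to 860828 in inputs. The authors' scaling factors were 0.341 to 0.634, 1.24 to 2.37 and 0.701 to 1.48 for these 3 kinds, so a level compared between kinds rests on that scaling. The myogenic miRNAs miR-1a-3p, miR-133a-3p and miR-206-3p together had 38668 to 57068 CPM (the authors' normalised read count, scaled to library size) in differentiated inputs and 225 to 1389 CPM in undifferentiated inputs. Epithelial markers reached at most 5.64 CPM and the 2 blood markers in the table at most 3.76 CPM in any library. The neural marker miR-9-5p had 38.7 to 67.6 CPM in differentiated and 158 to 262 CPM in undifferentiated inputs, while miR-124-3p had no read. Its part in the results was not tested. The letters A, B and C name the libraries of each group and do not pair them across groups.

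In input RNA, most family reads were of miR-29a-3p. miR-29b-3p fell, miR-29a-3p did not pass the test, and miR-29c-3p was higher on average without passing it. Each of the 3 members passed the filter on low counts here.

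miR-29a-3p had 2363, 2743 and 1964 CPM in differentiated inputs A, B and C, against 4044, 1684 and 3895 CPM in undifferentiated inputs. The groups overlapped, because undifferentiated library B lay below all 3 differentiated libraries. Means were 2357 ± 390 CPM in differentiated and 3208 ± 1322 CPM in undifferentiated inputs (SD, n = 3 each). It ranked 38, 38 and 42 by abundance among all names in differentiated inputs and 26, 57 and 34 in undifferentiated inputs. The log2 fold change, on the log2(CPM + 10) scale used throughout, was -0.35 ± 0.37 (SE; limma adjusted p = 0.434). Its 95% interval ran from -1.08 to 0.38. The sign of this value rests on the scaling: it was 0.29 with RLE factors, 0.33 with TMM factors of the 6 inputs and 0.16 with library totals, none of them past the threshold. Without undifferentiated library B the value was -0.76 and the limma adjusted p 0.0453.

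miR-29b-3p had 42.2, 37.6 and 49.5 CPM in differentiated inputs, from 23, 20 and 23 reads, against 125, 80.6 and 224 CPM in undifferentiated inputs, from 41, 29 and 135 reads. Every differentiated library lay below every undifferentiated library. The log2 fold change was -1.42 ± 0.38 (limma adjusted p = 0.00648). In this comparison 46.3% of the 313 miRNAs tested fell and 16% rose, and the median of all was -0.64, so a fall as such was common. Relative to that median miR-29b-3p was at -0.79. With TMM factors of the 6 inputs, which put the median of all miRNAs at -0.06, miR-29b-3p was at -0.83 with limma adjusted p = 0.0517. Across the 10 alternatives adjusted p ranged from 8.90e-04 to 0.0517, and 9 of them passed. In bulk RNA, fewer cells that contain a miRNA and less of it per cell cannot be told apart.

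miR-29c-3p had 62.4, 52.6 and 45.2 CPM in differentiated inputs, from 34, 28 and 21 reads, against 21.3, 11.1 and 53.0 CPM in undifferentiated inputs, from 7, 4 and 32 reads. The groups overlapped through undifferentiated library C. The log2 fold change was 0.86 ± 0.39 (limma adjusted p = 0.0711), or 1.50 above the median of all miRNAs. It rested on that library and on the scaling: without library C it was 1.29 with limma adjusted p = 0.0130, and with library totals 1.30 with limma adjusted p = 0.00910. Of 9 alternatives, 5 passed, with values from 0.43 to 1.63.

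**Figure D1:**
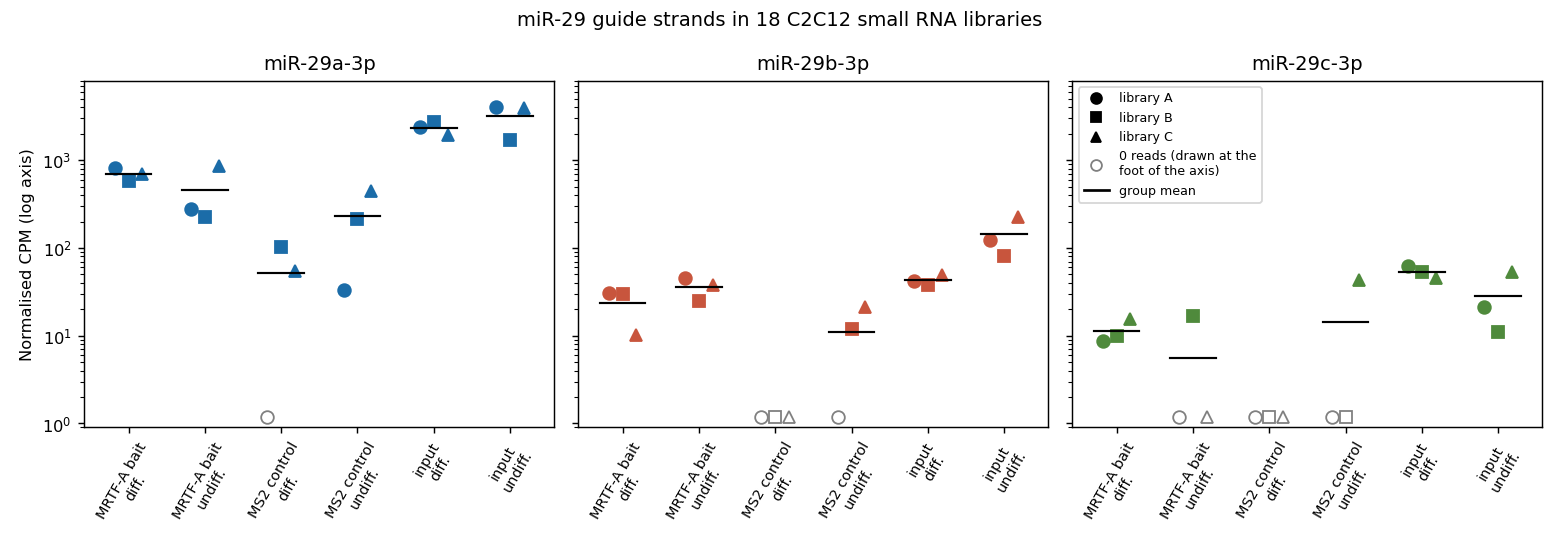
Normalised CPM on a log axis of miR-29a-3p, miR-29b-3p and miR-29c-3p in each library of the 6 groups (diff., differentiated; undiff., undifferentiated), with lines at the group means and open symbols for libraries with 0 reads. miR-29a-3p lies far above the other forms in every group, and miR-29b-3p separates differentiated (37.6 to 49.5 CPM) from undifferentiated inputs (80.6 to 224 CPM).

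**Figure D2:**
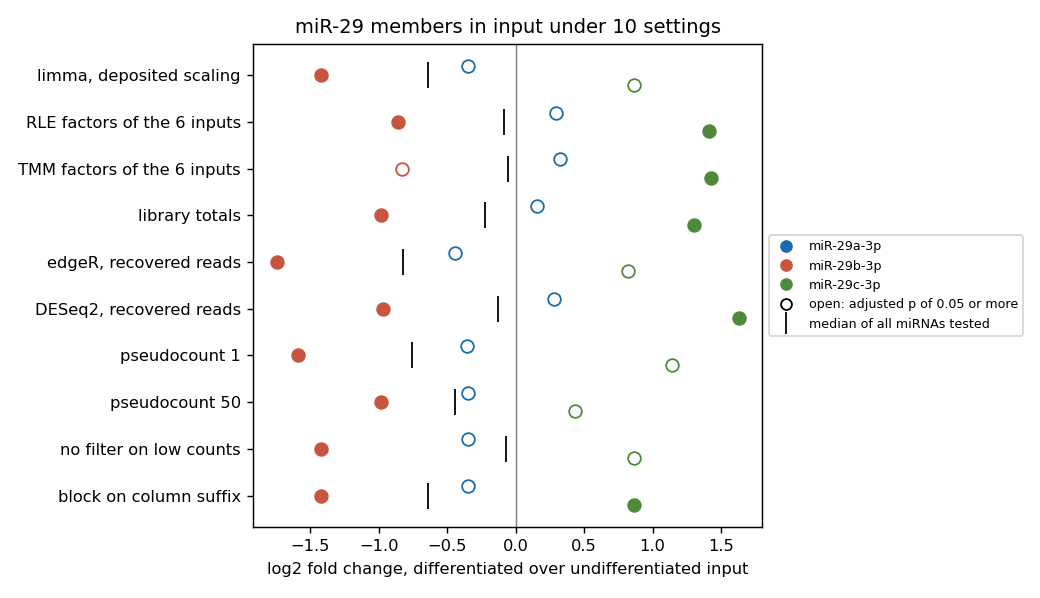
log2 fold change of the 3 members in differentiated over undifferentiated input under 10 settings, with open symbols for an adjusted p of 0.05 or more and a bar at the median of all miRNAs tested. miR-29b-3p lies left of the bar and miR-29c-3p right of it in each setting, while miR-29a-3p changes sign from -0.35 to values up to 0.33 with other scalings.

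Shares within the family do not depend on the scaling. miR-29a-3p made up 96.0 ± 0.74% of family reads in differentiated inputs and 94.9 ± 1.57% in undifferentiated inputs (SD, n = 3 each). miR-29b-3p held 1.71, 1.33 and 2.40% in differentiated inputs, against 2.98, 4.54 and 5.36% in undifferentiated inputs. miR-29c-3p held 2.53, 1.86 and 2.19% in differentiated inputs, against 0.51, 0.63 and 1.27% in undifferentiated inputs. For both scarce forms the groups did not overlap, in opposite directions. How often groups of 3 separate in this way was not counted over all miRNAs. In level, 16% of the 313 tested rose and 46.3% fell in these inputs.

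miR-29b-3p had more reads than miR-29c-3p in 1 of 3 differentiated inputs, library C with 23 against 21 reads, and in all 3 undifferentiated inputs. Reads of miR-29b-3p per read of miR-29c-3p numbered 0.676, 0.714 and 1.10 in differentiated inputs, against 5.86, 7.25 and 4.22 in undifferentiated inputs. This ratio was chosen after its values were seen and has no test. Counts behind it are as low as 4 reads, and intervals on such counts would cover counting error only.

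Over inputs and MRTF-A bait eluates together, the share of miR-29b-3p was lower in differentiated cells by a mean of -4.25 percentage points (exact permutation within kind of library, 2-sided p = 0.010, 0.060 after Benjamini-Hochberg adjustment over the 6 share tests run; 0.005 is the smallest p of this design). The difference was -2.48 points in inputs and -6.02 points in bait eluates. In the eluates the shares were 3.59, 4.79 and 1.44% in differentiated cells, against 14.3, 9.38 and 4.23% in undifferentiated cells, with overlap and with only 3 reads in each undifferentiated library. Without undifferentiated bait library B the difference was -4.23 points with exact permutation adjusted p = 0.04, and without library C it was -5.52 points with exact permutation adjusted p = 0.03. miR-29a-3p differed by 3.80 points (exact permutation p = 0.115, adjusted 0.218), and without undifferentiated bait library C by 5.59 points (exact permutation adjusted p = 0.03). miR-29c-3p differed by 0.45 points (exact permutation p = 0.82, adjusted 0.984). That value was -0.070 without undifferentiated bait library A or C and 1.49 without library B (exact permutation adjusted p = 0.03), the one undifferentiated bait library with miR-29c-3p reads. Of 12 runs with 1 library left out, miR-29b-3p passed in 2, and miR-29a-3p and miR-29c-3p in 1 each. The other runs did not pass, with exact permutation adjusted p up to 0.29 for miR-29b-3p and 0.33 for miR-29a-3p.

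**Figure D3:**
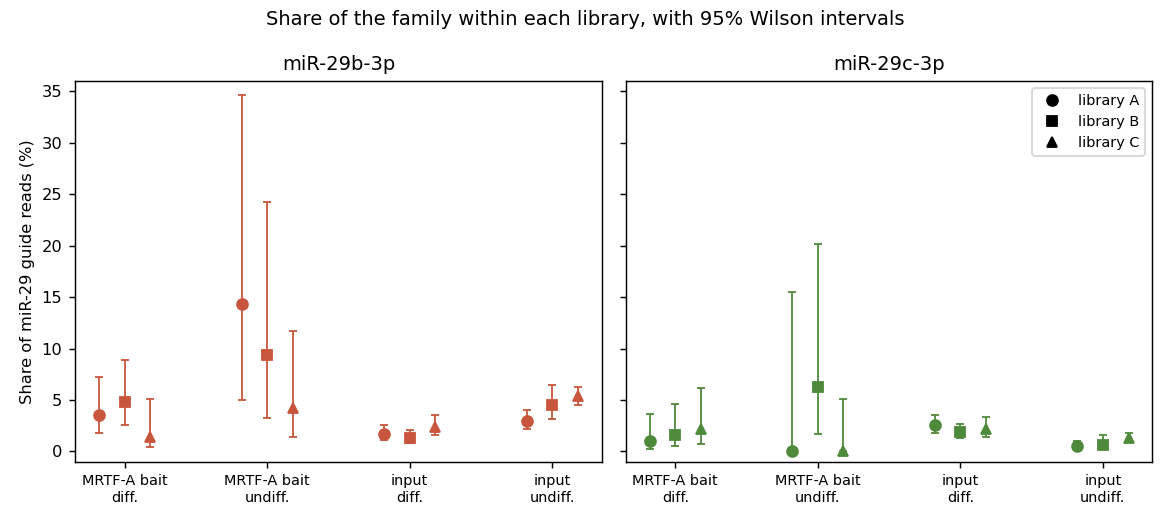
Share of family reads, in percent with 95% Wilson intervals, of miR-29b-3p and miR-29c-3p in each MRTF-A bait eluate and input library. In the inputs miR-29b-3p is at 1.33 to 2.40% in differentiated and 2.98 to 5.36% in undifferentiated cells and miR-29c-3p the other way round, while the bait intervals are wide.

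The 5p arms of miR-29b differ between its hairpins, so their own reads can be placed. They do not show which hairpin gave the reads of miR-29b-3p. For this reason the arm of Mir29b-1 is shown, with its seed in capitals.
mmu-miR-29b-1-5p: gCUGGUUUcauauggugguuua
miR-29b-1-5p had 0 reads in all 3 differentiated inputs, against 3, 7 and 16 reads in undifferentiated inputs. The undifferentiated level was 10.3-fold the level that 3 reads over the differentiated group would give on the deposited scaling, and 6.77-fold on library totals. Counting error of the undifferentiated reads is not covered. In the fit of 1415 names without a filter on low counts its log2 fold change was -1.45 ± 0.32 (limma adjusted p = 9.64e-05). That value depends on the pseudocount, and differentiated inputs, all at 0 reads, had no spread of their own. Among the 313 miRNAs of the filtered fit 46.3% fell, and the share for the unfiltered names is not given here. The authors' deposited table gives -6.17, differentiated over undifferentiated, with an FDR of 0.00159. miR-29b-2-5p, the arm from the other cluster, had 0 reads in differentiated and 1 read in undifferentiated inputs, too few for a comparison.

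miR-29a-5p had 5, 1 and 2 reads in differentiated inputs, against 2, 4 and 19 reads in undifferentiated inputs. miR-29c-5p had 4, 1 and 3 reads, against 5, 2 and 4 reads. In the fit without a filter their log2 fold changes were -0.70 ± 0.33 (limma adjusted p = 0.169) and -0.31 ± 0.32 (limma adjusted p = 0.602). Pooled over a group, there were 457.5 reads of miR-29a-3p per read of its 5p arm in differentiated and 171 in undifferentiated inputs. For miR-29c the same ratio was 10.4 in differentiated and 3.91 in undifferentiated inputs. The 5p arms did not pass the filter in any comparison.

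The MRTF-A bait was then compared with the MS2 control within each state. Only miR-29a-3p had enough reads to be tested. It was far above the control in differentiated cells, and in undifferentiated cells the groups overlapped.

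In differentiated cells miR-29a-3p had 811, 586 and 689 CPM with the MRTF-A bait, from 186, 176 and 134 reads, against 0, 103 and 54.2 CPM with the MS2 control, from 0, 3 and 2 reads. Every bait library lay above every control library. The log2 fold change was 4.07 ± 0.97 (limma adjusted p = 0.00204), with a 95% interval from 2.17 to 5.97. In this comparison 57.4% of the 169 miRNAs tested were higher with the bait and 21.9% lower, with a median of 2.37. miR-29a-3p ranked 51 of 169, at the 70.4th percentile. On pooled reads, 496 against 5, the ratio was 13.2, with an exact 95% interval of 5.61 to 40.8 for counting error only, and 4.83 on library totals. The difference passed in each of 11 alternatives, from 2.83 to 5.27, and without any 1 of the 6 libraries, from 3.04 to 4.79. Control libraries A and B of this state are among 3 controls in which 0.755 to 0.930% of reads carried human names. Without those 3 libraries the value was 3.45 (limma adjusted p = 0.00411), but the differentiated control is then library C alone, with 2 reads, and its spread is assumed to be like that of the other groups.

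In undifferentiated cells miR-29a-3p had 276, 224 and 857 CPM with the MRTF-A bait, from 18, 27 and 68 reads, against 32.8, 214 and 448 CPM with the MS2 control, from 1, 18 and 21 reads. Bait libraries A and B lay between control libraries B and C. The log2 fold change was 1.24 ± 0.97 (limma adjusted p = 0.275), with a 95% interval from -0.66 to 3.14. Of the 169 miRNAs tested, 43.2% were higher with the bait and 17.2% lower, and the median was 1.16. With library totals the value was -0.55, and the median of all miRNAs was then -1.31, so the sign rests on the scaling.

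The difference between the states in the bait effect on miR-29a-3p was 2.83 ± 1.37 (limma adjusted p = 0.185; 13% of the 169 miRNAs passed), and a difference was not established. The unadjusted p was 0.0617. Taken on their own, the bait eluates differed between states by 0.85 ± 0.97 (limma adjusted p = 0.549; 38.5% passed). The MS2 control eluates differed by -1.97 ± 0.97 (limma adjusted p = 0.163; 24.9% passed), which became -2.94 with limma adjusted p = 0.0381 without undifferentiated control library A. DESeq2 on the recovered reads gave -2.38 for the controls with adjusted p = 0.0484. These 3 differences use the same 12 eluates.

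**Figure D4:**
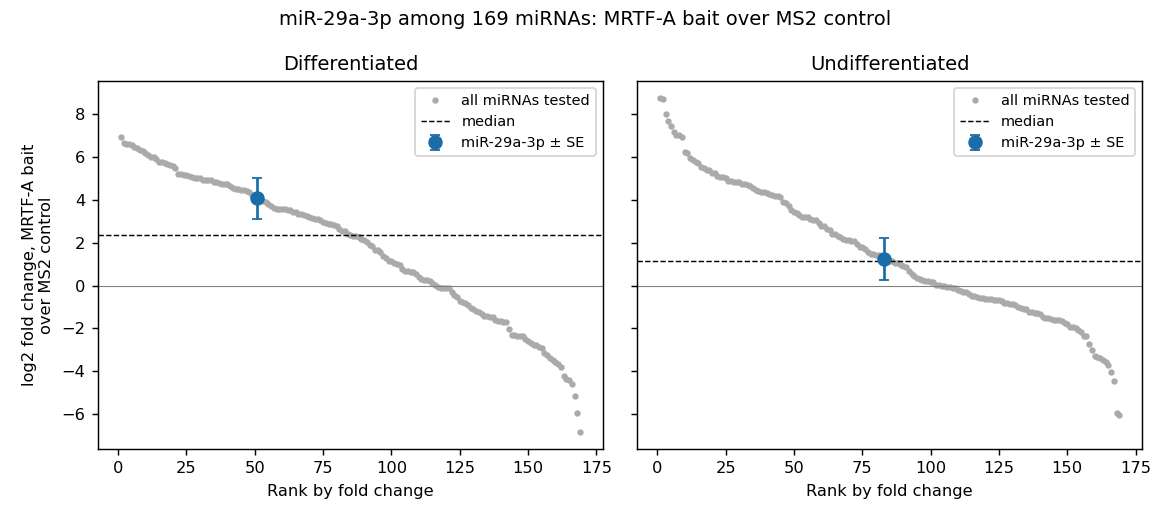
log2 fold change of MRTF-A bait over MS2 control for all 169 miRNAs tested, ranked, in differentiated and undifferentiated cells, with miR-29a-3p and its SE in blue and the median dashed. miR-29a-3p is at 4.07, above the median of 2.37, in differentiated cells and at 1.24, next to the median of 1.16, in undifferentiated cells.

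miR-29b-3p and miR-29c-3p did not pass the filter in the bait comparison. miR-29b-3p had 7, 9 and 2 reads with the bait in differentiated cells, against 0 reads in all 3 controls, and 3, 3 and 3 reads with the bait in undifferentiated cells, against 0, 1 and 1 reads in the controls. miR-29c-3p had 2, 3 and 3 reads with the bait in differentiated cells, against 0 in the controls, and 0, 2 and 0 with the bait in undifferentiated cells, against 0, 0 and 2 in the controls. In the differentiated controls 3 reads over the group stand for 31.2 CPM, more than the pooled 24.9 CPM of miR-29b-3p and 11.1 CPM of miR-29c-3p with the bait. By that floor an enrichment of either could not be shown in differentiated cells at this depth. In the fit without a filter miR-29b-3p was at 1.68 ± 0.58 there (limma adjusted p = 0.0580). miR-29c-3p was at 1.08 ± 0.69 (limma adjusted p = 0.346). Both values depend on the pseudocount. In the undifferentiated controls 3 reads stand for 18.6 CPM, below the pooled 34.0 CPM of miR-29b-3p and above the 7.55 CPM of miR-29c-3p with the bait. In undifferentiated cells the pooled ratio of miR-29b-3p was 2.74, with an exact 95% interval of 0.568 to 26.1, and 0.633 on library totals.

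The MRTF-A bait eluates were also set against the inputs, where miR-29a-3p and miR-29b-3p passed the filter and miR-29c-3p did not. In undifferentiated cells miR-29a-3p was at -2.95 ± 0.85 (limma adjusted p = 0.00538) and miR-29b-3p at -1.64 ± 0.46 (limma adjusted p = 0.00415) relative to input. Both fell, where 45.2% of the 305 miRNAs tested fell and the median was -1.04. miR-29b-3p passed the filter of this fit through the undifferentiated inputs, where it was highest, and failed it without input A or C. Its fall from those inputs was partly set by that filter and is not separate support. In differentiated cells miR-29a-3p was at -1.75 ± 0.85 (limma adjusted p = 0.0827) and miR-29b-3p at -0.72 ± 0.46 (limma adjusted p = 0.178), where 30.8% fell and the median was -0.14. No bait library of either state reached the miR-29a-3p level of an input library of the same state. In differentiated cells edgeR at the deposited scaling gave -1.76 for miR-29a-3p with adjusted p = 0.00454, so this call rests on the tool. DESeq2, with its own scaling, gave -1.82 with adjusted p = 0.00160. In undifferentiated cells DESeq2 gave -0.75 for miR-29b-3p with adjusted p = 0.348, and -1.58 for miR-29a-3p with adjusted p = 0.00834. There miR-29a-3p was at -1.67 with RLE factors (limma adjusted p = 0.131) and at -2.98 with a pseudocount of 1 (limma adjusted p = 0.0616), and it passed in 8 of 10 alternatives. miR-29b-3p was at -1.87 with a pseudocount of 1 (limma adjusted p = 0.0941) and passed in 7 of the 9 alternatives in which it was tested, which leave out RLE factors.

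Pooled over a group and counting error only, family reads in bait eluates were 0.292 of the input level in differentiated cells (95% interval 0.266 to 0.320) and 0.133 in undifferentiated cells (0.111 to 0.159). On library totals these were 0.128 in differentiated and 0.0686 in undifferentiated cells. The shares of the 3 members in bait eluates and inputs did not differ past the threshold. miR-29b-3p had a share higher by 3.23 points in bait eluates (exact permutation p = 0.060, adjusted 0.18), and miR-29a-3p one lower, at -3.57 points (exact permutation p = 0.145, adjusted 0.218). Without undifferentiated bait library C these were 4.50 and -5.36 points, each with exact permutation adjusted p = 0.03. miR-29c-3p differed by 0.34 points (exact permutation p = 0.995, adjusted 0.995), and by -0.70 points without undifferentiated bait library B (exact permutation adjusted p = 0.04). Of 12 runs with 1 library left out, each member passed in only the 1 named. The other runs had exact permutation adjusted p up to 0.31 for miR-29b-3p and 0.383 for miR-29a-3p.

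Reads of the 5p arms were few in the eluates. miR-29b-1-5p had 1, 2 and 2 reads in the differentiated bait eluates, against 0 in the differentiated inputs. The bait level was 3.55-fold the level of 3 reads over the input group on the deposited scaling and 1.55-fold on library totals. Counting error of these few bait reads is not covered, so neither value is a lower bound. In undifferentiated cells it had 3, 2 and 0 reads in bait eluates, against 26 reads in the inputs, a pooled ratio of 0.938 (95% interval 0.281 to 2.48), or 0.482 on library totals. No test without the filter passed for it between bait eluate and input, with limma adjusted p = 0.409 in differentiated cells. miR-29b-2-5p had 2 reads in differentiated bait library C, against 0 in the differentiated inputs. miR-29a-5p and miR-29c-5p had 0 reads in all 6 bait eluates, and miR-29a-5p had 2 reads in differentiated MS2 control library B.

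The MS2 control eluates held less miR-29a-3p than the inputs in both states, by -5.81 ± 0.85 in differentiated cells (limma adjusted p = 1.57e-05) and -4.19 ± 0.85 in undifferentiated cells (limma adjusted p = 3.02e-04). For miR-29b-3p the values were -2.40 ± 0.46 (limma adjusted p = 1.98e-04) in differentiated and -2.90 ± 0.46 (limma adjusted p = 2.60e-05) in undifferentiated cells. By DESeq2 they were -2.07 (adjusted p = 0.170) in differentiated and -1.56 (adjusted p = 0.224) in undifferentiated cells. DESeq2 also used its own scaling, so tool and scaling cannot be told apart here. The other 9 of 10 alternatives in which miR-29b-3p was tested passed in each state, and it was not tested with RLE factors. It passed the filter through the undifferentiated inputs, so its fall from those inputs was partly set by that filter here too. As the differentiated controls had 0 reads of miR-29b-3p, the value of -2.40 depends on the pseudocount. Across the alternatives it ran from -6.30 to -0.89, and the authors' deposited table gives -6.57 with an FDR of 0.121. Its input level was 1.37-fold the level of 3 reads over the differentiated control group, or 1.15-fold on library totals, without counting error of the input reads. Of the 305 miRNAs tested, 53.8% fell in differentiated and 62.6% in undifferentiated cells, with medians of -1.58 and -2.19. miR-29a-3p was at the 1.97th percentile in differentiated cells and the 13.8th in undifferentiated cells. The bait and control comparisons with input share the input libraries.

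Over the 6 groups the mean level of miR-29a-3p ran in the order undifferentiated input, differentiated input, differentiated bait at 695 ± 112 CPM, undifferentiated bait at 452 ± 351 CPM, undifferentiated MS2 control at 232 ± 208 CPM and differentiated MS2 control at 52.4 ± 51.5 CPM (SD, n = 3 each). By limma, no tested pair of neighbours in this order passed: the input states, differentiated bait and input, the bait states, undifferentiated bait and control, and the control states. As CPM of library totals, without the scaling factors, the undifferentiated bait averaged 242 ± 213 CPM, below the 455 ± 406 CPM of the undifferentiated control, and the differentiated bait 403 ± 69.7 CPM.

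The seed match of the family was looked for in the annotated 3'UTR of Mrtfa. The exact sequence of the bait was not used here; the 1004 bases of transcript Mrtfa-204 on GRCm38 were read instead on the transcript strand. The 7-letter match TGGTGCT occurred 0 times, as did its 8-letter form TGGTGCTA and its 6-letter core GGTGCT. Among 10216 mouse 3'UTRs at least as long, the first 1004 bases held the 7-letter match in 10.1%, the 8-letter form in 1.82% and the core in 24.9%. The matches of the 5p arms were absent too. This says only that these letters are not in this window.

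miRNAs linked to YY1 or NF-kB in muscle cells moved in both directions in the input. Of 9 listed, 8 were tested, 4 rose and 3 fell, with a median of 1.40 against -0.64 for all 313 miRNAs, of which 16% rose and 46.3% fell. With RLE factors, TMM factors of the inputs or library totals, 7 were tested, 4 rose and 2 fell. miR-133b-3p, a muscle-specific miRNA, rose by 4.46 ± 0.62 (limma adjusted p = 6.44e-05), and miR-155-5p, known from inflammatory signalling, fell by 1.15 ± 0.33 (limma adjusted p = 0.00838). In the bait comparison 4 of 6 tested were higher and 1 lower in differentiated cells, with a median of 4.48, where 57.4% of all miRNAs were higher and 21.9% lower with a median of 2.37. Those higher included miR-1a-3p, miR-133a-3p and miR-206-3p. In undifferentiated cells 2 were higher and 1 lower, with a median of 0.57, where 43.2% of all were higher and 17.2% lower with a median of 1.16.

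miRNAs linked to collagen and fibrosis, the other theme of miR-29, also divided. Of 10 listed, 9 were tested in the input, 3 rose and 3 fell, with a median of -0.23, beside 16% and 46.3% of all miRNAs and their median of -0.64. With RLE factors, TMM factors of the inputs or library totals 4 rose and 2 fell. miR-101a-3p, which targets Ezh2, rose by 1.65 ± 0.35 (limma adjusted p = 0.00145), and miR-214-3p, which is expressed with miR-199a from an antisense transcript of a dynamin gene, fell by 1.80 ± 0.38 (limma adjusted p = 0.00136). In the bait comparison 6 of 7 tested were higher and 1 lower in differentiated cells, with a median of 4.94 beside 57.4% higher, 21.9% lower and a median of 2.37 for all. In undifferentiated cells 4 were higher and 1 lower, with a median of 4.71 beside 43.2% higher, 17.2% lower and a median of 1.16 for all. With library totals 8 were tested, 4 higher and 1 lower in differentiated and 4 higher and 3 lower in undifferentiated cells. miR-21a-5p and miR-133a-3p stand on both lists.

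Across the 18 libraries the levels most like the summed family, among 303 other miRNAs, were those of miR-98-5p (Pearson r = 0.93), miR-181d-5p (r = 0.93), miR-107-3p (r = 0.87), miR-151-3p (r = 0.87) and miR-103-3p (r = 0.86), on the log2(CPM + 10) scale. Within the family r was 0.87 for miR-29a-3p with miR-29b-3p, 0.74 for miR-29a-3p with miR-29c-3p and 0.62 for miR-29b-3p with miR-29c-3p. These are descriptions without a test, since the points share libraries, depth and the 3 kinds of sample. miR-98-5p averaged 980 ± 90.6 and 875 ± 295 CPM in differentiated and undifferentiated bait eluates, 81.9 ± 72.4 and 228 ± 170 CPM in the controls, and 1149 ± 138 and 3223 ± 851 CPM in the inputs (SD, n = 3 each).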

How the data were processed

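Small RNA libraries were made with an Illumina kit from total eluates and from part of the input, per the labels' protocols. Per the submitters' processing notes, the authors used edgeR 3.18.1 and featureCounts 1.4.6 after Bowtie2 2.0.13 and cutadapt 1.4.2, on GRCm38 (mm10). Their settings, and what was done with multiply matching reads, are not given in the labels. The deposited signal is the authors' normalised CPM, 1 value for each miRNA in a library. Whole reads were recovered from its steps (100% of values whole within 0.01 read). These recovered counts were used for filters and for edgeR on the deposited scale, while DESeq2 estimated its own scaling from them. The log2 fold changes, p-values and FDR quoted from the authors' deposited table are theirs, per the file headers.

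The deposited values are not raw counts, so limma 3.58.1 with a trend (R 4.3.3) on log2(CPM + 10) was the main test, after edgeR's filterByExpr, with Benjamini-Hochberg adjustment over all miRNAs tested and a threshold of 0.05. The fits used 6 inputs, 12 eluates, or all 18 libraries for bait or control against input. Alternatives were RLE and TMM factors of the fitted libraries, library totals, DESeq2 1.42.0 or edgeR 4.0.16 applied to recovered reads, pseudocounts of 1 and 50, no filter, a block, miR-29a-3p and miR-29c-3p summed, controls with over 0.5% human-named reads left out, and each library left out. Library totals for pooled reads were added after the data were seen. Fits were tested on simulated data. Shares were compared by exact permutation within strata, and pooled ratios by exact binomial intervals at 95%, which cover counting error only. Floors of 3 reads cover it only on the side with 0 reads. Tables and figures were made in Python 3.11.15 with scipy 1.17.1, pandas 2.3.3, matplotlib 3.10.9 and numpy 2.4.6. Sites were searched in GENCODE annotation with RefSeq miRNA sequences.

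States were taken from titles, since the treatment text is the same for all samples. The table's columns name groups and a suffix not tied to label replicates. Same-suffix libraries deviated together (every r over 0.1) in 2 of 15 pairs of groups, with r from -0.31 to 0.40 overall; in those 2 comparisons the block changed no call of a member. All replicate pairs differed beyond sampling (chi-square per degree of freedom at least 3.90). Named were the 3 members, their 5p arms, the 5 miRNAs most correlated with the family sum, examples from the lists of YY1 or NF-kB and of collagen or fibrosis, and marker lists. Members and lists were chosen with earlier results of these data known.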

Additional observations from a re-analysis of the deposited data

How the results depend on the processing

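With RLE factors, library totals, DESeq2 or the replicate block, 2 members passed in the input, not 1. In the block fit miR-29c-3p had limma adjusted p = 0.0498. With TMM factors of the inputs 1 member passed, but it was miR-29c-3p, which rose, instead of miR-29b-3p. miR-29a-3p reversed in the input with TMM factors of the inputs (0.33), RLE (0.29), library totals (0.16) and DESeq2 (0.28), and in the undifferentiated bait comparison with library totals (-0.55). Members passing in undifferentiated bait over input were 2, but 0 with RLE or a pseudocount of 1, 1 with DESeq2 and 3 with library totals. In differentiated bait over input they were 0 by limma (0 also at unadjusted p under 0.05), 3 with library totals, and 1 with edgeR, DESeq2 or a pseudocount of 50. In each control over input they were 2, but 1 with RLE or DESeq2. In differentiated control over input they were 3 with library totals or no filter, where miR-29c-3p was tested and passed. With RLE miR-29a-3p was the only member tested against input. Control eluates between states gave 0 by limma (0 unadjusted, 0 by edgeR) and 1 by DESeq2. The block changed no other call. The causes were not tested.

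Leaving out 1 library gave 1 to 2 members passing in the input, 1 to 3 in undifferentiated bait over input (1 without undifferentiated input A or C, when miR-29b-3p did not pass the filter) and in undifferentiated control over input (1 without the same libraries, likewise), 2 to 3 in differentiated control over input, and 0 to 1 between control eluates. Share differences between states then ranged from 2.74 to 5.59 points for miR-29a-3p, -5.52 to -3.00 for miR-29b-3p and -0.070 (reversed, without undifferentiated bait A or C) to 1.49 for miR-29c-3p, and between bait eluate and input from -5.36 to -2.51, 1.98 to 4.50 and -0.70 to 0.86.

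Over all miRNAs, calls in the input were 50 higher and 145 lower, but 90 and 86 with TMM factors of the inputs, 88 and 88 with RLE, 75 and 100 with library totals and 87 and 91 with DESeq2. Bait over control calls were 97 and 37 in differentiated and 73 and 29 in undifferentiated cells, but 61 and 58, and 44 and 73, with library totals. For the difference of bait effects 22 passed, against 0 with edgeR or library totals, 2 without a filter, 11 with pseudocount 1, 38 with pseudocount 50 and 13 without the 3 human-named controls. Control libraries of 15562 to 39695 reads limit what can be said of miR-29b-3p and miR-29c-3p with the bait.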
